A study of Homo sapiens with 10 samples.

Results

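The cytosolic ribosome is built from ribosomal proteins of a large subunit (named RPL, with the stalk proteins RPLP0, RPLP1 and RPLP2) and a small subunit (RPS), and most of their mRNAs belong to the TOP class. A list of 56 such genes was followed on the arrays: 33 ribosomal proteins of the large and 20 of the small subunit, the elongation factors EEF1B2 and EEF2, and TPT1, the translationally controlled tumour protein. A gene was taken where a probe set (a group of array probes for 1 transcript) was annotated with that symbol alone, and the probe set with the highest mean log2 signal stood for the gene. By this rule 45 of the 56 members could be measured, out of 19775 genes so covered. RPL4, RPL5, RPL7A, RPL13, RPL23, RPS2, RPS13, RPS20 and EEF1B2 had only probe sets that carry several symbols, and RPL15 and RPLP0 were not in the annotation table, so these 11 are not analysed here. All 45 others passed the filter on low signal.

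The cells were LoVo, an established line from a human colorectal adenocarcinoma. Control cells (C, 3 arrays) grew in medium with 10% fetal bovine serum, serum-starved cells (SS, 3 arrays) went without serum, and ADMA cells (4 arrays) went without serum but with 10 μM asymmetric dimethylarginine, a methylated arginine that inhibits nitric oxide synthases. RNA was taken after 96 h in each group. The labels call the arrays of a group biological replicates of this 1 line, and no group with serum and ADMA together was analysed here.

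Ribosomal protein mRNAs are among the most abundant in growing cells, and their products are made in matched amounts. A TOP mRNA starts with a cytosine followed by an unbroken run of pyrimidines. Under the growth kinase complex mTORC1 such mRNAs are translated at a high rate, and when mTORC1 is off, as without growth factors, the protein LARP1 binds their capped ends and holds them untranslated. The arrays read the amount of each mRNA and not its translation.

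The starts of the mRNAs whose values carry the results are shown first, each from 10 bases before to 20 bases from the start annotated by RefSeq on GRCh38.p14, 5′ to 3′. Capitals mark the pyrimidine tract, searched on the gene's own strand as C followed by at least 4 further C or T and starting within 5 bases of the annotated start. The first 5 are the members with the largest log2 difference between ADMA and serum-starved cells, and the sixth is the 1 member called in serum starvation. The last 4 are RPS27 and RPL22 beside their paralogs RPS27L and RPL22L1, which are not members.
RPS18: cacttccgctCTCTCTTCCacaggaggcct
RPS19: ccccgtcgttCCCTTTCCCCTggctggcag
TPT1: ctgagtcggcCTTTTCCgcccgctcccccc
RPL3: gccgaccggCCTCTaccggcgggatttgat
RPLP1: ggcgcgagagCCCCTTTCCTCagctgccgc
RPL27A: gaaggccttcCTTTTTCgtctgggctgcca
RPS27: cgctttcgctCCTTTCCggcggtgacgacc
RPS27L: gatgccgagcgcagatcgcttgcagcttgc
RPL22: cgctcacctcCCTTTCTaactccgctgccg
RPL22L1: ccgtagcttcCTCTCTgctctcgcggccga

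In order, the windows lie at chr6:33272065-33272094 (plus strand), chr19:41860245-41860274 (plus), chr13:45341164-45341193 (minus), chr22:39319604-39319633 (minus), chr15:69452808-69452837 (plus), chr11:8682782-8682811 (plus), chr1:153990752-153990781 (plus), chr15:63157458-63157487 (minus), chr1:6199576-6199605 (minus) and chr3:170870176-170870205 (minus). Each holds the end of the promoter and the beginning of the first exon. Of the 45 measured members 40 had an entry in the promoter table, and in 30 of these (75%) a tract began exactly at an annotated start, against 7.14% of the 10067 tested genes with an entry. With a tract that began within 5 bases either side it was 36 of 40 (90%) against 29.3%. The other cytosolic ribosomal proteins had a tract exactly at the start in 15 of 19, the mitochondrial ribosomal proteins in 6 of 69 and the ribosome biogenesis genes in 5 of 51. Among the pairs shown RPL22L1 had a tract at its start and RPS27L had none within the window. RPL6, RPL9, RPL27 and RPS15 had no such letters within the window at any annotated start.

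The signal is the deposited MAS 5.0 intensity, here on the log2 scale, and a gene is said to have risen or fallen where limma gave a Benjamini-Hochberg adjusted p under 0.01 over all 12342 genes tested and the fold was at least 1.2. Every array had been scaled to the same 2% trimmed mean of 500.06, but the median signal was 60.7 to 73.1 in control, 87.5 to 90.7 in serum-starved and 91.9 to 98.1 in ADMA cells. RNA per cell was therefore not measured, and fewer cells and less RNA per cell cannot be told apart. The array's 28S ribosomal RNA probe sets gave 494 to 599 in control, 1548 to 2400 in serum-starved and 972 to 1310 in ADMA cells, and the 3′ to 5′ signal ratio of GAPDH, a sign of RNA integrity, was 0.855 to 0.974 over all arrays. The same ratio of ACTB was 1.13 to 1.23 in serum-starved cells, above the 1.01 to 1.08 in control and the 1.02 to 1.05 in ADMA cells. All 10 intestinal epithelial markers were measured above the filter. So were 4 of 6 leukocyte markers with a probe set, 3 of 8 for fibroblasts, 1 of 6 for endothelium and 1 of 2 for red cells or serum. The summed leukocyte marker signal was 846 to 1222 in control, 4488 to 5187 in serum-starved and 1767 to 2523 in ADMA cells, and LYZ, the lysozyme gene, was the 1 leukocyte marker called higher in serum starvation, while PTPRC and CD14 stayed under the filter. The part of these markers, of the ACTB ratio and of the 28S signal in the members' values was not tested.

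The probe sets that stood for the members, each chosen as the brightest of its gene, were among the brightest features of the array. In 43 of the 45 the mean log2 signal over the 10 arrays was 14.20 to 15.05, and the dimmest of these 43 stood at percentile 99.46 to 99.52 of all probe sets, depending on the array. RPS19, a protein of the small subunit mutated in Diamond-Blackfan anaemia, was the brightest at 15.05. RPL27A at 9.79 and the stalk protein RPLP2 at 7.51 were the exceptions. Of all 98 probe sets of the members, chosen or not, 64 were at 14 or more, 21 between 8 and 14 and 13 under 8. Signals of different probe sets are not on a common scale, so these levels order probe sets and not transcripts.

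None of the 43 bright members passed the test in serum starvation, and their differences from control were small. Among the 45, 1 was called higher in serum-starved than in control cells, against a background of 30.3% of all tested genes, and 0 were called lower, against 27.3%. By limma's unadjusted p under 0.05 there were 4 members in either direction, against 8631 of all 12342 tested genes. SAM called 0 members, against 2551 higher and 2032 lower over all tested genes. The 43 bright members differed by -0.15 to 0.16 with standard errors of 0.06 to 0.09, and their median difference was 0.06, as for all 45. RPL36, a large subunit protein, was at the lower end with -0.15 (adjusted p = 0.051 by limma) and RPS18, of the small subunit, at the upper end with 0.16 (adjusted p = 0.138). With quantile normalization 3363 of 12339 tested genes were called higher and 3533 lower. The bright members then gave 0 calls by limma, from -0.15 to 0.22, with 13 at an unadjusted p under 0.05. That step gives every array the same distribution and so fixes the values of the top ranks. Since the bright members stand there, it largely removes a joint change of theirs. Centring each array on its median instead put 37 members lower, where 5184 of all 12342 tested genes were lower. The median member was then at -0.33 and the median of all tested genes at -0.32.

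**Figure D1:**
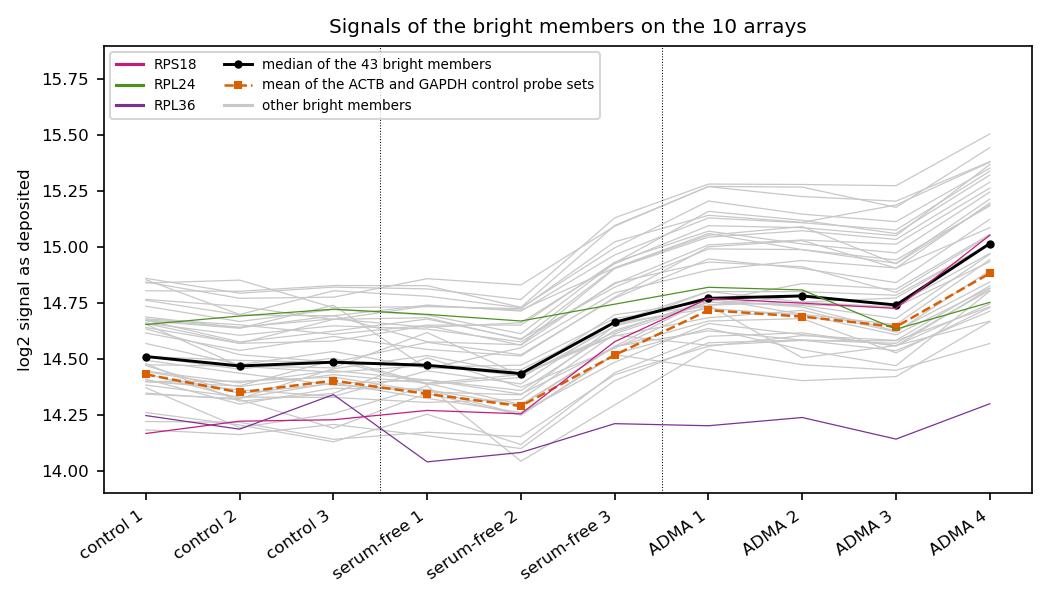
Log2 signal as deposited (vertical) on the 10 arrays (horizontal, by group and replicate). Each thin line joins the values of 1 of the 43 bright members and has no meaning between arrays, the black line is their median, and the orange dashes are the mean of the ACTB and GAPDH control probe sets. The median lay at 14.47 to 14.51 in control, 14.44 to 14.66 in serum-starved and 14.74 to 15.02 in ADMA cells, and the control probe sets lay close under it on every array.

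RPL27A, a large subunit protein, was the member that rose. Its log2 signals were 9.38, 9.49 and 9.60 in control, 9.92, 10.15 and 10.18 in serum-starved and 10.11, 9.68, 9.64 and 9.76 in ADMA cells. All 3 serum-starved arrays were above all 3 control arrays, by 0.59 on average (standard error 0.12, adjusted p = 0.000501 by limma). The ADMA arrays lay above all control arrays, and 3 of the 4 lay below all serum-starved arrays. Neither the difference from serum-starved cells (-0.29, standard error 0.11) nor that from control cells (0.30, standard error 0.11) was called. RPL27A was measured by a probe set far dimmer than those of the 43 bright members, and 2 further probe sets that name it also name other genes.

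The other genes that make ribosomes moved apart from the bright members in serum starvation. Of 75 mitochondrial ribosomal proteins, which build the separate ribosome of the mitochondria, 69 were called lower and 1 higher, with a median of -0.87. Of 53 ribosome biogenesis genes, which make and assemble the subunits in the nucleolus, 45 were lower and 1 was higher, with a median of -0.75. These counts were 69 and 46 lower with quantile normalization, 73 and 50 lower with the arrays centred on their medians and 68 and 42 lower with the arrays centred on ACTB and GAPDH. A gap between lists within an array is not moved by centring, which adds 1 constant to all log2 values of the array, but quantile normalization can move it. As deposited, the median bright member stood 2.47 to 2.55 above the median mitochondrial ribosomal protein on the control arrays, 3.55 to 3.75 above it on the serum-starved arrays and 3.50 to 3.73 on the ADMA arrays. Over the median biogenesis gene the gap was 3.43 to 3.57, 4.22 to 4.52 and 4.39 to 4.65. In both cases the control arrays lay apart from all 7 arrays without serum, which overlapped. After quantile normalization the list medians in serum starvation were -0.00 for the bright members, -0.80 for the mitochondrial ribosomal proteins and -0.77 for the biogenesis genes, and with ADMA against serum-starved cells they were 0.01, 0.25 and 0.25. MRPL4, a protein of the large mitochondrial subunit, fell by 2.04 (standard error 0.11), MRTO4, a nucleolar assembly factor of the large subunit, fell by 2.01 (standard error 0.11), and MRPS6 of the small mitochondrial subunit rose by 1.04 (standard error 0.09).

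**Figure D2:**
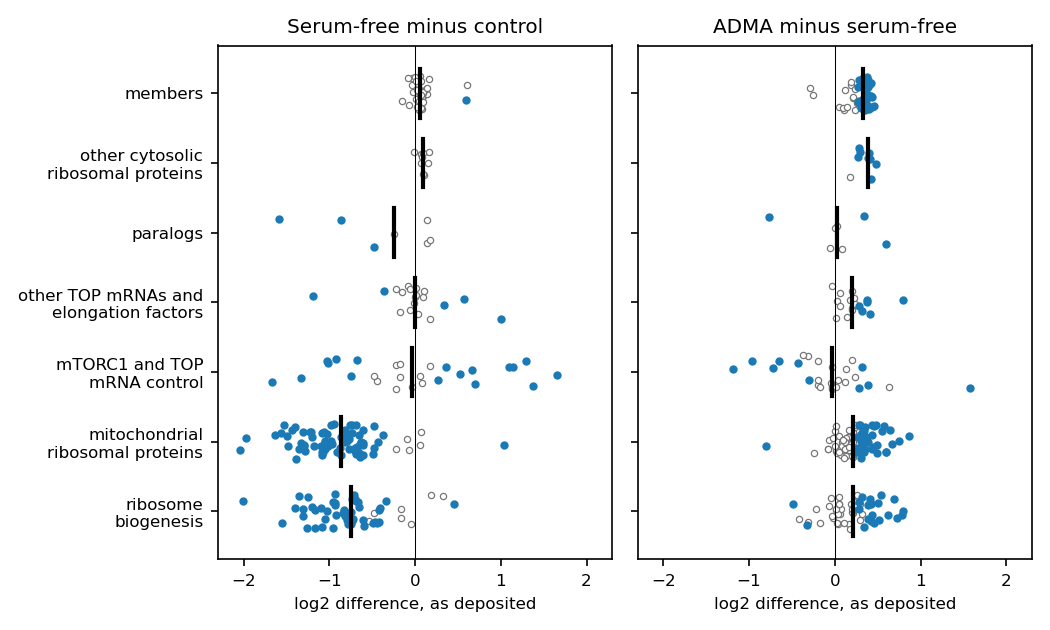
Log2 difference as deposited (horizontal) of every tested gene in each list (vertical), for serum-free minus control and ADMA minus serum-free. Filled points passed the test, open points did not, black bars are list medians, and vertical scatter only separates points. In serum starvation the members sit around 0.06 while the mitochondrial ribosomal proteins centre on -0.87 and the biogenesis genes on -0.75.

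With ADMA the signals of most members were higher than in serum-starved cells as the arrays were deposited, and this rested on the scale of the arrays. As deposited, 31 of the 45 rose, against 15.7% of all tested genes, and 0 fell, against 13.8%. The median difference was 0.33, against 0.03 for all tested genes. In all 43 bright members the difference was positive, from 0.05 in RPL24 to 0.46 in RPS18. By role, 16 of 26 large subunit, 14 of 17 small subunit and 1 of 2 other members rose. The ACTB and GAPDH control probe sets, which are as bright as the members, were higher by 0.35 on average. Of the 96 other genes with a mean log2 signal of 14 or more, 59 were called higher and 0 lower, with a median of 0.30.

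With quantile normalization, which gives every array the same distribution, the median member differed by 0.00 between ADMA and serum-starved cells. Then 0 members were called by limma in either direction, 19 had an unadjusted p under 0.05, and the range was -0.30 to 0.14. Because the bright members stand at the top ranks, whose values this step fixes, it largely removes a joint change of theirs. It therefore cannot show whether they changed together. With the arrays centred on the ACTB and GAPDH control probe sets, 0 rose, RPL24 and RPL27A fell, and the median was -0.02. This alternative was chosen after the data were seen. Over all 12342 tested genes 426 then rose and 4424 fell, with a median of -0.32. Centred on the array medians, 4 members rose (RPL3, RPLP1, RPS18 and RPS19) and 0 fell, with a median of 0.22. Over all tested genes 902 then rose and 2097 fell, with a median of -0.09. Centring adds 1 constant per array, so the distance between the members' median and that of all tested genes stayed as deposited. SAM on the deposited values called 0 members, against 1012 higher and 938 lower over all tested genes. As deposited, leaving out serum-starved replicate 1 or replicate 2 left 18 members called higher in each case, against 1653 and 1545 of all tested genes. A rise of the members' mRNAs and a shift of the whole bright end of the arrays cannot be told apart from these values alone. The median bright member lay 0.08 to 0.12 above the ACTB and GAPDH control probe sets on the control arrays, 0.13 to 0.15 on the serum-starved arrays and 0.05 to 0.13 on the ADMA arrays, where the last overlap both other groups.

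**Figure D3:**
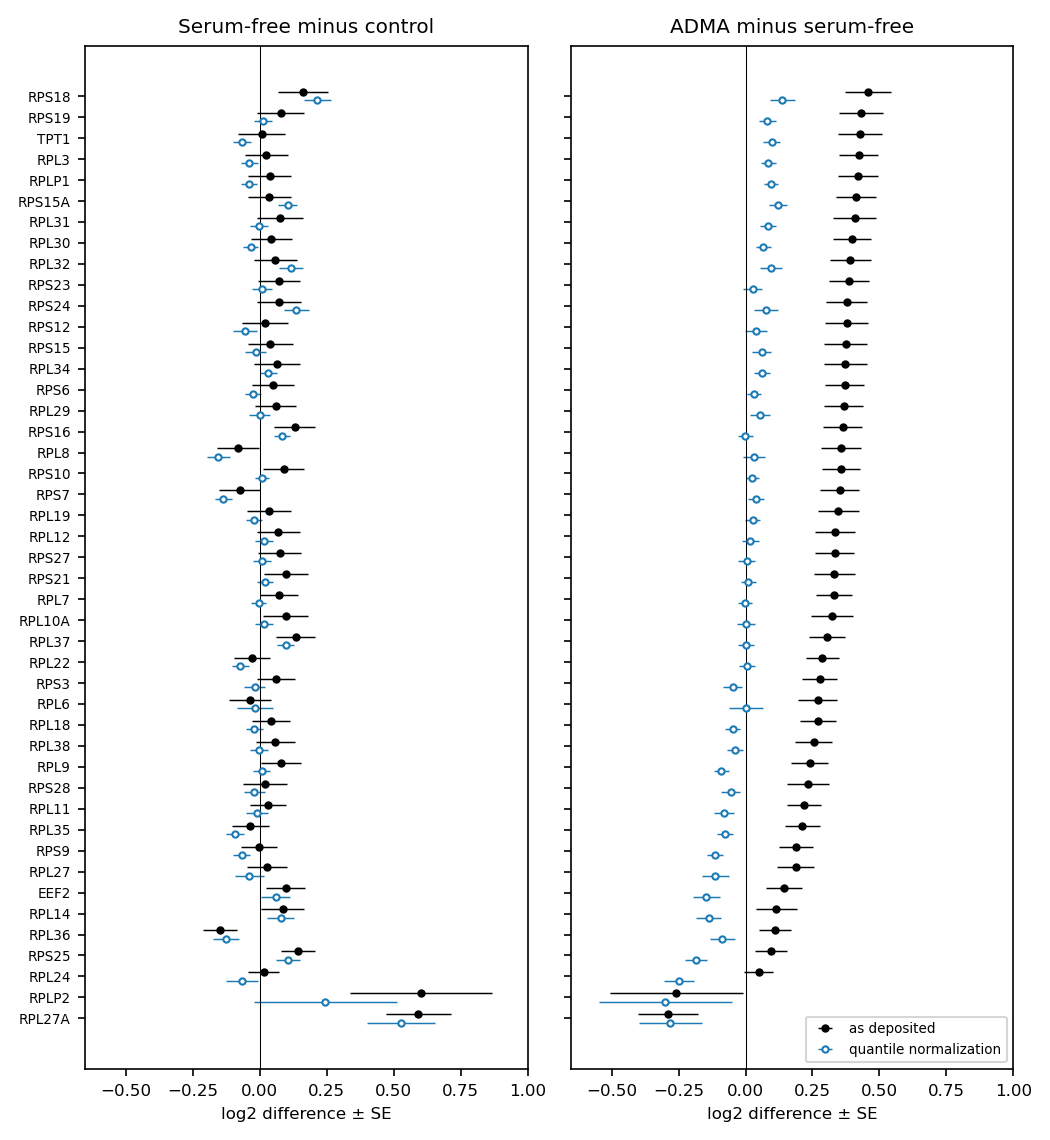
Log2 difference with its standard error (horizontal) of the 45 measured members (vertical, ordered by the ADMA minus serum-free difference), as deposited (filled) and after quantile normalization (open). On the left both sets lie around 0 except for the dim RPL27A and RPLP2. On the right the deposited values centre on 0.33 and the normalized ones on 0.00.

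Among large subunit proteins RPL3, which helps to shape the site of peptide bond formation, had the largest ADMA minus serum-starved difference. Its log2 signals were 14.62, 14.54 and 14.60 in control, 14.54, 14.51 and 14.78 in serum-starved and 15.00, 15.03, 14.91 and 15.20 in ADMA cells. All ADMA arrays were above all others, by 0.42 over serum-starved cells (standard error 0.07, adjusted p = 0.000339 by limma), and control and serum-starved arrays overlapped. RPL31, which lies near the exit of the peptide tunnel, gave 14.68, 14.64 and 14.68, then 14.64, 14.66 and 14.93, then 15.10, 15.09, 15.05 and 15.37. The difference was 0.41 (standard error 0.08), again without overlap between ADMA and serum-starved arrays. After quantile normalization neither RPL3 (0.09, adjusted p = 0.0285) nor RPL31 (0.08) was called. RPL24 gave 14.65, 14.69 and 14.72 in control, 14.70, 14.67 and 14.75 in serum-starved and 14.82, 14.81, 14.63 and 14.75 in ADMA cells, so all 3 groups overlapped. A second RPL24 probe set, of mean log2 signal 14.51, was called higher with ADMA as deposited, by 0.33 over serum-starved cells (standard error 0.07).

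The stalk, which recruits the elongation factors to the ribosome, was measured by 2 of its 3 proteins. RPLP1 gave 14.74, 14.67 and 14.72 in control, 14.70, 14.61 and 14.93 in serum-starved and 15.16, 15.12, 15.06 and 15.32 in ADMA cells. ADMA arrays were above all others and higher than serum-starved ones by 0.42 (standard error 0.07, adjusted p = 0.000423 by limma). RPLP2, whose protein pairs with RPLP1, was read by the dimmest probe set of any member, with 7.33, 7.20 and 7.04, then 7.75, 7.91 and 7.71, then 7.95, 7.57, 6.74 and 7.87. The serum-starved arrays were above the control arrays by 0.60 (standard error 0.27, adjusted p = 0.0573), which was not called, and the ADMA arrays spanned both groups.

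In the small subunit RPS18 differed most. Its log2 signals were 14.17, 14.22 and 14.23 in control, 14.27, 14.26 and 14.58 in serum-starved and 14.77, 14.75, 14.73 and 15.05 in ADMA cells. The groups did not overlap and stood in that order, and the ADMA minus serum-starved difference was 0.46 (standard error 0.09, adjusted p = 0.000662 by limma), with 0.14 after quantile normalization, which was not called. RPS19 gave 14.86, 14.79 and 14.82, then 14.81, 14.77 and 15.13, then 15.28, 15.28, 15.27 and 15.51, a difference of 0.43 (standard error 0.08). RPS6, the substrate of the S6 kinases and a common readout of mTORC1, gave 14.85, 14.70 and 14.80, then 14.78, 14.73 and 15.00, then 15.21, 15.15, 15.11 and 15.35, a difference of 0.37 (standard error 0.07). For RPS19 and RPS6 all ADMA arrays were above all serum-starved arrays, and control and serum-starved arrays overlapped. RPS16 gave 14.84, 14.77 and 14.78, then 14.86, 14.83 and 15.09, then 15.27, 15.27, 15.18 and 15.44. RPS23, which sits at the decoding site, gave 14.80, 14.80 and 14.83, then 14.83, 14.73 and 15.10, then 15.27, 15.23, 15.21 and 15.38. In both the lowest ADMA array was above the highest serum-starved array, with differences of 0.36 and 0.39 (standard error 0.07 each).

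Of the members that are not ribosomal proteins, TPT1, a textbook TOP mRNA, moved with the ribosomal proteins. It gave 14.69, 14.64 and 14.69 in control, 14.58, 14.56 and 14.90 in serum-starved and 15.04, 15.07, 15.03 and 15.29 in ADMA cells. ADMA arrays were above all others, by 0.43 over serum-starved cells (standard error 0.08, adjusted p = 0.000705 by limma), and TPT1 differed between serum-starved and control cells by 0.01 (standard error 0.09). EEF2, which moves the ribosome along the mRNA, gave 14.48, 14.31 and 14.35, then 14.51, 14.37 and 14.55, then 14.74, 14.51, 14.56 and 14.67. Its ADMA and serum-starved arrays overlapped, and the difference of 0.14 (standard error 0.07, adjusted p = 0.1) was not called.

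Against control cells, which the first comparison also used, ADMA cells had 31 members higher, where the background was 26.6%, and 0 lower, where it was 23.2%, with a median difference of 0.40. The ACTB and GAPDH control probe sets differed by 0.34. The largest values were those of RPS18 (0.62, standard error 0.09), RPS19 (0.51, standard error 0.08), RPS16 (0.49, standard error 0.07), RPL31 (0.48, standard error 0.08) and RPS23 (0.46, standard error 0.07). After quantile normalization the median was 0.01 and 2 members were called by limma, RPS18 higher by 0.35 (standard error 0.05, adjusted p = 1.25e-05) and RPL24 lower (-0.31, standard error 0.06, adjusted p = 0.000245). Over the 12339 genes then tested 2867 were higher and 3050 lower. Centred on ACTB and GAPDH, RPS18 was called higher (0.28) and RPL24 (-0.27) and RPL36 (-0.38) lower, at a member median of 0.06. Over all 12342 tested genes 1590 were then higher and 4696 lower, with a median of -0.27. With the arrays centred on their medians 9 members fell, RPL24 and RPL36 among them, and 0 rose, at a median of -0.10. Over all tested genes 1209 then rose and 6101 fell, with a median of -0.44, so the median member lay above the median gene. On the probe sets that stood for them RPS18 was above the members' median, and RPL24 and RPL36 below it, under each of these scalings. Centring moves all members alike and cannot change this, so only quantile normalization could have. These 3 genes were singled out after their values were seen. The second bright RPL24 probe set was called higher than control as deposited, by 0.31 (standard error 0.07). The low place of RPL24 is thus that of 1 probe set and not of the gene. RPL36 gave 14.25, 14.19 and 14.34 in control, 14.04, 14.08 and 14.21 in serum-starved and 14.20, 14.24, 14.14 and 14.30 in ADMA cells, with all 3 groups overlapping.

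Members were covered by 98 probe sets in all, and 30 of the 45 had more than 1. Tested probe set by probe set, the 64 with a mean log2 signal of 14 or more gave 0 calls in serum-starved against control cells and lay between -0.15 and 0.16. Of the 21 between 8 and 14, 7 were called higher and 5 lower, where the background over all probe sets was 29.4% higher and 24% lower. A dim probe set of RPS24, a small subunit protein whose mRNA is alternatively spliced at its end, had the largest difference. Its log2 signals were 8.10, 8.35 and 8.34 in control, 11.27, 11.18 and 11.04 in serum-starved and 10.91, 10.88, 11.09 and 10.84 in ADMA cells. The 7 arrays without serum were all above the controls, by 2.90 in serum-starved cells (standard error 0.10), while the bright RPS24 probe set differed by 0.07 (standard error 0.08). Dim probe sets of RPS21 (-1.06), RPS15A (-1.11), RPS28 (-1.0) and RPS23 (-0.57) were called lower. Others of RPS16 (1.5), RPS19 (1.47) and RPL31 (1.0) were called higher, as was 1 of RPS15A (1.98) whose mean log2 signal of 7.39 was under 8. Which part of a transcript these probe sets match was not analysed here.

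In 4 members, RPL31, RPS15A, RPS19 and RPS21, probe sets of the same gene were called in opposite directions. The 3 probe sets of RPL31 differed between serum-starved and control cells by 0.08, 1.0 and -0.69, in order of their brightness 14.88, 10.43 and 10.40. For RPS15A the bright probe set gave 14.18, 14.16 and 14.21 in control, 14.16, 14.10 and 14.40 in serum-starved and 14.57, 14.59, 14.57 and 14.81 in ADMA cells. One of its dim probe sets gave 10.07, 10.15 and 10.14, then 8.97, 9.11 and 8.95, then 9.70, 9.76, 9.83 and 9.82, with no overlap between the groups. For RPS19 a probe set of mean log2 signal 8.20 fell by 0.76 with ADMA against serum-starved cells (standard error 0.13) where the brighter ones rose. The bright RPS21 probe set gave 14.68, 14.65 and 14.61, then 14.65, 14.65 and 14.93, then 15.07, 15.01, 14.97 and 15.25, and its other one gave 12.00, 12.08 and 11.87, then 11.01, 10.85 and 10.91, then 10.80, 10.34, 10.49 and 10.73. With ADMA against control these 2 differed by 0.43 and -1.40.

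**Figure D4:**
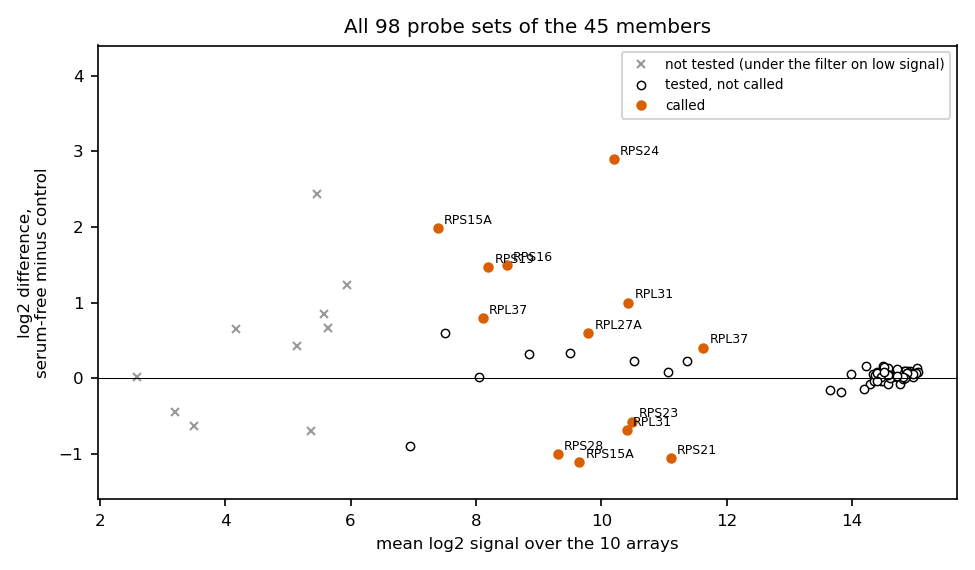
Log2 difference of serum-free minus control (vertical) against mean log2 signal over the 10 arrays (horizontal) for all 98 probe sets of the 45 measured members, with the gene named where the probe set was called. The 64 bright probe sets on the right lie between -0.15 and 0.16, and the called ones all have a mean log2 signal under 14, from 2.90 for RPS24 down to -1.11 for RPS15A.

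Other genes of this brightness included some that passed the test as deposited. Of the 96 tested genes of mean log2 signal 14 or more that are not members, 12 were called higher and 20 lower in serum starvation, from -0.80 to 1.62. Over all tested genes it was 30.3% higher and 27.3% lower. Centred on the array medians, where 37 members were lower, 6 of the 96 were higher and 70 lower, with a median of -0.40. Of all 12342 tested genes 2014 were then higher and 5184 lower. RPL22L1, the paralog of RPL22 and nearly as bright, gave 14.16, 14.09 and 14.20 in control, 13.69, 13.58 and 13.77 in serum-starved and 14.17, 14.24, 14.21 and 14.46 in ADMA cells. It fell in serum starvation (-0.47, standard error 0.08, adjusted p = 5.17e-05 by limma) and stood 0.59 higher with ADMA (standard error 0.07), and the serum-starved arrays overlapped neither other group. RPL22 itself gave 14.44, 14.33 and 14.39, then 14.32, 14.26 and 14.49, then 14.66, 14.61, 14.56 and 14.75 on its brightest probe set, and differed by -0.03 (standard error 0.07) in serum starvation. Its probe sets of mean log2 signal 14.47 and 14.42 differed by -0.03 and -0.01. Those of 13.83 and 13.64 differed by -0.19 and -0.15 (standard errors 0.07 and 0.05), with serum-starved arrays below all control arrays, and were not called.

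Of the 7 tested paralogs of cytosolic ribosomal proteins, 3 fell in serum starvation and 0 rose (3 and 1 after quantile normalization). The background over all tested genes was 27.3% lower and 30.3% higher, and after quantile normalization 3533 and 3363 of 12339. So few genes cannot be told from this background by their count. RPS27L, RPL22L1 and RPL7L1 have a member as their counterpart, while RPL39, RPL26, RPL36A and RPL10, the counterparts of the other tested paralogs, are not members. RPL39L, the form of RPL39 found mainly in testis and in tumours, fell by 1.59 (standard error 0.09) and RPL26L1 fell by 0.86 (standard error 0.07). RPL7L1 (-0.24), RPS27L (0.14), RPL36AL (0.14) and RPL10L (0.18) did not pass, and RPL3L stayed under the filter. RPS27L, a p53 target, gave 14.31, 14.26 and 14.31, then 14.45, 14.33 and 14.53, then 14.45, 14.48, 14.37 and 14.56 on its bright probe set, whose ADMA minus serum-starved difference was 0.03 (standard error 0.06). Its dimmer probe sets fell by 1.08 and fell by 0.60 with ADMA. RPS27 gave 14.63, 14.52 and 14.49, then 14.57, 14.52 and 14.77, then 14.95, 14.90, 14.84 and 15.12, and rose by 0.33 (standard error 0.07) with ADMA as deposited, while after quantile normalization the difference was 0.00. With ADMA, RPL10L fell by 0.77 (standard error 0.20) and RPL39L was 0.34 higher (standard error 0.08), which turned to -0.01 when the arrays were centred on ACTB and GAPDH.

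The 9 tested cytosolic ribosomal proteins outside the member list were as bright. In serum starvation 0 were called by limma, also at an unadjusted p under 0.05, from -0.01 to 0.16, and 6 were lower with the arrays centred on their medians, and with ADMA 8 rose as deposited, with RPL23A highest at 0.48, RPL41 at 0.42 and RPL39 at 0.41, and 0 rose after quantile normalization. Of 19 other TOP mRNAs and elongation factors, 3 rose and 2 fell in serum starvation with a median of 0.00, where the background was 30.3% and 27.3%. When the arrays were centred on their medians 1 rose and 13 fell with a median of -0.39, against 2014 and 5184 of the 12342 tested genes. EIF5A, the hypusine-carrying factor that helps the ribosome over difficult peptides, fell from 14.23, 14.19 and 14.26 to 12.84, 13.03 and 13.26, by 1.19 (standard error 0.09), and reached 13.74, 13.77, 13.88 and 13.96 with ADMA. GAS5, a TOP transcript that hosts small nucleolar RNAs and was named for its build-up in arrested cells, rose by 1.0 (standard error 0.18), CCNI, a cyclin family gene, rose by 0.58 (standard error 0.07), and EIF4B, an initiation factor, fell by 0.36 (standard error 0.07). PABPC1, the poly(A) binding protein, differed by 0.04 (standard error 0.08).

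Among 27 tested genes of mTORC1 and TOP mRNA control, 10 rose and 7 fell in serum starvation with a median of -0.04. The background over all tested genes was 30.3% higher and 27.3% lower. DDIT4, a stress-induced inhibitor of mTORC1, rose by 1.66 (standard error 0.08), SESN1, a sestrin that restrains mTORC1, by 1.38 (standard error 0.07) and TSC1, part of the complex that switches RHEB off, by 1.30 (standard error 0.10). AKT1S1, an mTORC1 subunit that inhibits it, fell by 1.66 (standard error 0.21), and RPS6KB2, an S6 kinase, fell by 1.33 (standard error 0.13). With ADMA against serum-starved cells 4 rose and 6 fell, where the background was 15.7% higher and 13.8% lower. SESN1 fell by 1.18 (standard error 0.07), SESN2 fell by 0.97 (standard error 0.12) and DEPTOR, an inhibitory partner of mTOR, rose by 1.57 (standard error 0.15). After quantile normalization these counts were 10 and 8 in serum starvation and 4 and 6 with ADMA. Centred on the array medians they were 5 and 14, then 1 and 6, and centred on ACTB and GAPDH they were 9 and 7, then 1 and 15. Over all 12342 tested genes the counts were 2014 and 5184, then 902 and 2097, centred on medians. Centred on ACTB and GAPDH they were 3476 and 3052, then 426 and 4424. The mRNA levels of these 27 genes were measured beside the members' levels, and their part in them was not tested.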

How the data were processed

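RNA of LoVo cells was hybridized to 10 Affymetrix HG-U133 Plus 2.0 arrays, which were grouped by their labels. The deposited values are intensities on a linear scale, which the authors computed with MAS 5.0 for 54675 probe sets. Since the trimmed means of the arrays are equal and their medians are not, values are given as deposited and after other scalings.

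The log2 was taken with no pseudocount. Probe sets with 1 symbol (41097) were kept and 1801 with several were left out. Genes with a mean signal under 76.3, the median over probe sets, were not tested. All 10 arrays entered 1 limma 3.58.1 model (R 4.3.3, lmFit, eBayes with an intensity trend), with Benjamini-Hochberg adjustment; thresholds follow the study's SAM settings. Probe set tests used 23119 probe sets. The steps were tested on simulated data. Figures used Python with matplotlib.

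The members and lists were chosen with earlier results of these data known. Per-array values are given for the 5 largest called rises and falls in each comparison, TPT1, EEF2, stalk proteins, RPS6, the brightest and dimmest member and members with opposite calls, and, of other lists, the 3 largest called changes were eligible. Others were added after their values were seen.

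Alternatives were quantile normalization, centring on medians, other filters and thresholds, no trend, array weights, SAM, 2 groups alone, averaging the probe sets of a gene, no x_at or s_at probe sets, a pseudocount of 16, a replicate block, each array left out and, added after the data were seen, centring on ACTB and GAPDH and probe sets in place of genes. Same-numbered arrays of 2 groups deviated with correlations of -0.06 to 0.13, so the numbers were not taken to pair them. Promoters (250 bases before to 50 after a start) came from RefSeq, and of several starts the one with a tract at the start, and then the longest, was shown. Real-time PCR and metabolite data are not analysed here.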

Additional observations from a re-analysis of the deposited data

Results flagged for a closer look

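On the 4 ADMA arrays, the only group large enough for this check, 1 array lay far from the other 3 in 12 of 79 genes looked at. For a single gene chance alone gives about 1 in 20. Genes on 1 array share its scale and are not independent, so this rate is no measure of the count. Of the 45 measured members 10 were among the 12, and in each it was ADMA replicate 4 that was high. RPS19 was at 15.51 there against 15.27 to 15.28 on the others, RPL31 at 15.37 against 15.05 to 15.10, TPT1 at 15.29 against 15.03 to 15.07, and RPL30 at 15.26 against 15.01 to 15.03. RPS18 was at 15.05 against 14.73 to 14.77, RPS15 at 15.02 against 14.74 to 14.77, RPL19 at 15.02 against 14.73 to 14.75, RPL29 at 15.01 against 14.78 to 14.80, RPS15A at 14.81 against 14.57 to 14.59 and RPS25 at 14.73 against 14.56 to 14.58. RPL23A, outside the member list, was at 15.06 on that array against 14.74 to 14.78, and TSC1 was at 10.45 on ADMA replicate 3 against 10.19 to 10.22. The ACTB and GAPDH control probe sets were also highest on ADMA replicate 4, at 14.88 against 14.64 to 14.72, and their part in these values was not tested. Without ADMA replicate 4, 25 members were called higher than in serum-starved cells, against 1677 of all tested genes, and the members' median difference was 0.28.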

How the results depend on the processing

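Members higher and lower are given as a pair for serum-starved against control, ADMA against serum-starved and ADMA against control, which were 1 and 0, 31 and 0, and 31 and 0 as deposited. With quantile normalization they were 1 and 0, 0 and 0, and 1 and 1, with medians of 0.00475 and 0.00567 in both ADMA comparisons. With medians as centre they were 0 and 37, 4 and 0, and 0 and 9, with medians of -0.33, 0.216 and -0.104. With ACTB and GAPDH as centre they were 1 and 0, 0 and 2, and 1 and 2, with ADMA medians of -0.0172 and 0.0637. SAM and a fold of at least 2 gave 0 throughout. Without the intensity trend ADMA against serum-starved gave 16 higher, against 1678 of all tested genes. Averaging the probe sets of each gene gave 7 and 2, 17 and 0, and 25 and 1. Over all tested genes it gave 3024 and 2621, 1376 and 928, and 2793 and 2173. Without x_at or s_at probe sets, which left 18 members, the members' counts were 3 and 3, 10 and 1, and 10 and 2, the last at a median of 0.283. All genes tested in that way gave 2948 and 2345, 1287 and 1276, and 2581 and 1986. Of the members' 98 probe sets 88 passed the filter and were tested, with 8 and 5, 54 and 2, and 57 and 3 called. The background over 23119 tested probe sets was 29.4% and 24%, 13% and 11.2%, and 26.6% and 20%. Leaving out 1 array at a time gave 1 to 2 members higher in serum starvation (2 without ADMA replicate 3), and with ADMA against serum-starved 18 to 35 higher (18 without serum-starved replicate 1 or 2) and 0 to 1 lower (1 without ADMA replicate 1). In this last comparison 1545 to 1917 of all tested genes were higher.

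Over all tested genes SAM gave 2551 higher and 2032 lower in serum starvation, 1012 and 938 with ADMA against serum-starved, and 2242 and 1520 with ADMA against control. A fold of at least 2 gave 1611 higher and 1205 lower, 231 and 157, and 1133 and 543. Centring on medians gave 2014 and 5184, 902 higher, and 1209 and 6101. Centring on ACTB and GAPDH gave 426 and 4424 with ADMA against serum-starved and 1590 and 4696 against control. In ADMA against serum-starved the mean of probe sets gave 928 lower and the omission of x_at and s_at gave 1287 higher.

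Same-numbered arrays were not taken as pairs. A replicate block over numbers 1 to 3, which leaves out ADMA replicate 4, gave 1, 25 and 27 members higher and 0 lower. Over all tested genes it gave 3718, 1642 and 3160 higher and 3353, 1453 and 2786 lower.

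Single genes changed sign as follows. Centred on medians, serum-starved minus control was -0.31 for RPS19, -0.38 for TPT1, -0.36 for RPL3, -0.35 for RPLP1, -0.31 for RPL31, -0.32 for RPS23, -0.29 for EEF2, -0.34 for RPS6, -0.35 for RPS15A, -0.35 for PABPC1 and -0.055 for HNRNPA1. ADMA minus control was -0.0696 for TPT1, -0.058 for RPL3, -0.049 for RPLP1, -0.013 for RPS16, -0.021 for RPL31, -0.047 for RPS23, -0.27 for EEF2, -0.087 for RPS6, -0.057 for RPS15A, -0.078 for RPS21, -0.39 for RPL22L1, -0.46 for EIF4B, -0.093 for PABPC1, -0.31 for SESN1, -0.33 for RPS27L and -0.43 for RPL36AL. Centred on ACTB and GAPDH, ADMA minus serum-starved was -0.019 for RPS21, -0.00696 for RPL39L, -0.34 for CCNI and -0.32 for RPS27L, and ADMA minus control was -0.30 for EIF4B. With quantile normalization RPS16 was at -0.00087 in ADMA minus serum-starved. With the mean of probe sets RPS21 was at -0.48, -0.0021 and -0.48 in the 3 comparisons, TCOF1 at -0.15 in ADMA minus serum-starved, and RPS27L at -0.55 and -0.51 in both ADMA comparisons. Without x_at or s_at probe sets RPS15A was at -1.11 and -0.35 in serum-starved and ADMA against control, RPS21 at -1.06, -0.33 and -1.40, RPL31 at -0.48 in ADMA minus serum-starved, and RPS27L at -1.08 and -1.38. The cause of these changes was not tested.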
